A study of Mus musculus with 6 samples.

Results

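The heterogeneous nuclear ribonucleoproteins (hnRNPs), the serine and arginine rich (SR) proteins and the SF3A and SF3B subunits of the U2 snRNP were followed through the response of mouse B cells to antigen receptor ligation. Members were all genes whose symbol begins with Hnrnp, Srsf, Sf3a or Sf3b, taken over array probes that the platform annotation gives a single symbol. This rule found 39 of 19057 such genes on the array: 20 hnRNP genes, 10 SR genes and 9 SF3 genes, read by 101 of 45281 probes. The probe that stands for each gene, called the standing probe, is the one brightest on average (mean log2 intensity over the 6 arrays). A probe was tested when it lay above the array median on at least 3 arrays, and 38 of the 39 genes had such a probe. Srsf12 did not, with intensities of 58.9 to 71.6 against an array median of 72.8.

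The cells were B lymphocytes isolated from the spleens of C57BL/6 mice 8 weeks old. One group, labelled untreated, had 3 samples, and the other, labelled anti-IgM, had 3 samples that received goat F(ab')2 fragments against mouse IgM at 2.5 µg/ml for 3 h. These fragments cross-link the B cell receptor. The shared protocol text also lists IL-4 at 5 ng/ml and CD40L at 200 ng/ml without saying which samples, if any, received them. Nothing in the labels tells whether replicates are different animals or cultures. The p-values therefore cover only how far these 3 samples a group differ, which may in part be technical. Sex-linked genes, given below, read as male in replicate 1 of both groups and as female in replicates 2 and 3. Sex thus differs within each group, and replicate 1 came from different animals than the others. Whether replicates 2 and 3 are different animals is not known.

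SR proteins bind exonic enhancers through RNA recognition motifs and recruit the splicing machinery through their arginine and serine rich domain, whose phosphorylation by SRPK and CLK kinases sets their location and activity. Many hnRNPs bind silencers in exons and introns and oppose SR proteins at the same exons. SF3A and SF3B are protein complexes of the U2 snRNP that hold it on the intron's branch point. SR and hnRNP genes commonly control their own mRNA through exons that carry a premature stop, so the level of a probe need not follow the level of the protein. Resting B cells that meet antigen enlarge and raise RNA and protein synthesis before they divide.

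At 3 h the SR and SF3 genes were mostly higher with anti-IgM and the hnRNP genes were divided. Of the 38 genes tested, 22 were higher (57.9%), 2 were lower (5.26%) and 14 did not pass at an adjusted p of 0.05 in limma, with adjustment over all 11855 genes tested. Over all genes tested, 23.2% were higher and 23.9% were lower. The median log2 change, anti-IgM minus untreated, was 0.55 over the members and 0.02 over all genes. By family, 7 of 9 SR genes, 7 of 9 SF3 genes and 8 of 20 hnRNP genes were higher, and both genes that were lower were hnRNPs. The family medians were 0.82, 0.75 and 0.34 in the same order. No test of the difference between families was run. All 22 higher genes were higher in 3 of 3 pairs of same-numbered samples, and both lower genes were lower in 3 of 3. Where the groups of a gene do not overlap, any pairing gives this outcome, so it adds no evidence for those genes. The 3 untreated and 3 anti-IgM intensities did not overlap for 26 of the 38 genes (68.4%), 23 upward and 3 downward, against 54.8% of all genes tested.

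**Figure D1:**
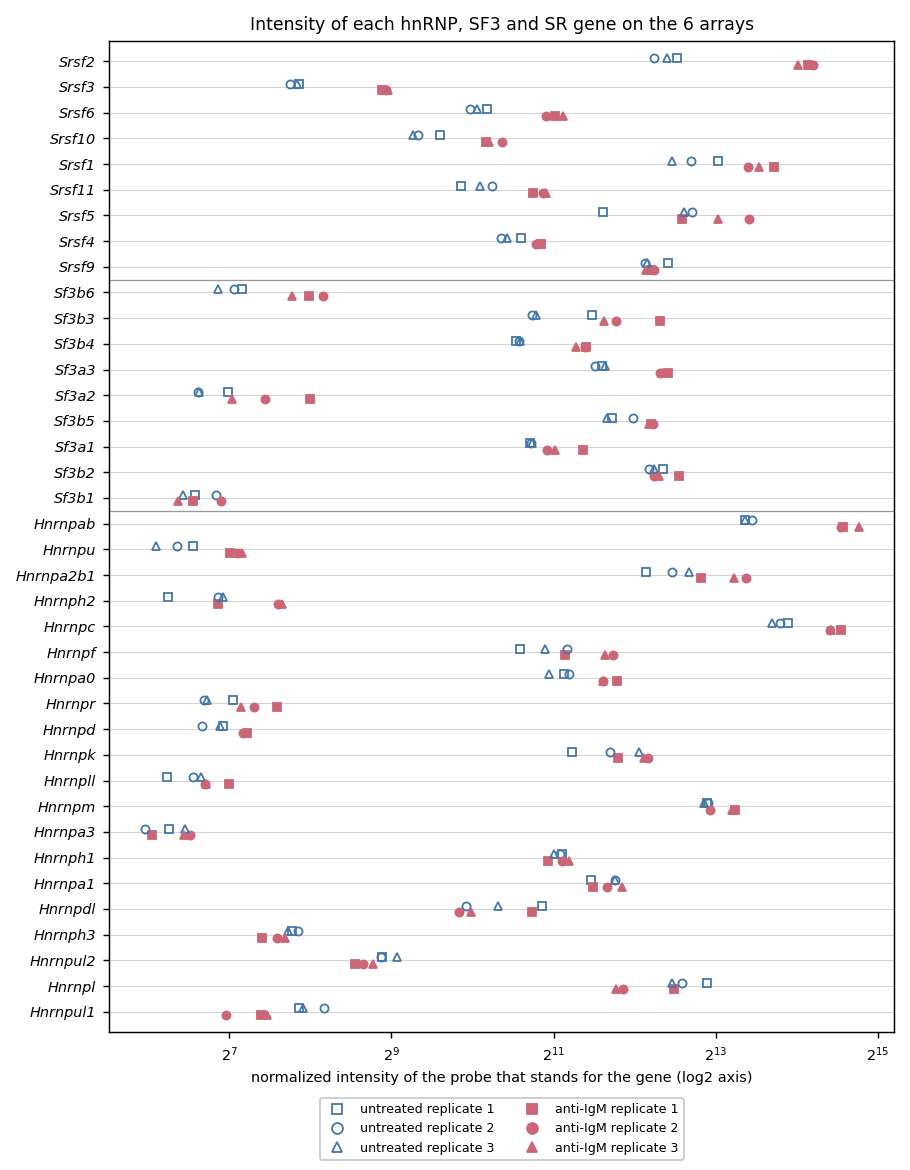
Normalized intensity (log2 axis) of the standing probe of each of the 38 tested genes on the 6 arrays, with open symbols for untreated, filled symbols for anti-IgM and 1 symbol shape for each replicate number. Filled symbols lie to the right of all open symbols for 23 genes and to the left of all of them for 3, while levels of different genes are not comparable because probes differ in brightness.

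Only 3 members were called and at least 2-fold higher, Srsf2, Hnrnpab and Srsf3, a share of 3 in 38 where 9.37% of all genes tested met the same rule. Srsf2 encodes SC35, an SR protein of nuclear speckles that activates exons. Its intensity was 5906, 4828 and 5405 in the untreated samples and 18050, 18845 and 16546 with anti-IgM. Every anti-IgM value was above every untreated value, and the log2 change was 1.73 ± 0.10 (SE, n = 3 and 3, adjusted p = 2.77e-07 in limma), a 3.32-fold rise. Hnrnpab encodes an RNA-binding protein that shuttles between nucleus and cytoplasm. Its intensity was 10518, 11147 and 10519 untreated and 24305, 23886 and 27795 with anti-IgM. That 2.36-fold rise (log2 1.24 ± 0.09, adjusted p = 1.31e-06 in limma) came from the member closest to the top of the scale. Its anti-IgM mean of 14.63 was less than 1 log2 unit under 15.52, the smallest maximum of the 6 arrays, so its change can be understated. Srsf3 encodes the smallest SR protein, which also acts in mRNA export. Its intensity was 232, 215 and 229 untreated and 474, 487 and 499 with anti-IgM, which are groups well apart. The rise was 2.16-fold (log2 1.11 ± 0.13, adjusted p = 3.52e-05 in limma).

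The promoters of these 3 genes are shown because they had the largest rises, each as 300 bases from 250 before to 50 after the annotated start, on the gene's strand, from RefSeq (GRCm38.p6). Capitals mark matches on either strand to 4 motifs: CACGTG, the E-box bound by MYC, CCGGAAGT, bound by ETS factors, CCAAT, bound by NF-Y, and the palindromic NRF1 motif (1 unspecified base, given by name). No 2 matches overlapped in a member promoter.
Srsf2, chr11:116853045-116853344, minus strand: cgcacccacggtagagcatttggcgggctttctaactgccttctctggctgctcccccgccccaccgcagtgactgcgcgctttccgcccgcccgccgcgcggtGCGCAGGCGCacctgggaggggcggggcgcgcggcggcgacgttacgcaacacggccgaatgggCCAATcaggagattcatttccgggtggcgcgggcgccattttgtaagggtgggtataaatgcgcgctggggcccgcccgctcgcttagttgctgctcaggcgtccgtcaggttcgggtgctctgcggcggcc
Srsf3, chr17:29032410-29032709, plus strand: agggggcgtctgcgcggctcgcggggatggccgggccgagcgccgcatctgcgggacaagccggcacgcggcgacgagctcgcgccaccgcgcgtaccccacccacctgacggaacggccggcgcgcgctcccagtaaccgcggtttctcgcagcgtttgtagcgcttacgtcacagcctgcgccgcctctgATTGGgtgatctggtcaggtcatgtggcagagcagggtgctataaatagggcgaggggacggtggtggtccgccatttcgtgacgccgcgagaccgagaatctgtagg
Hnrnpab, chr11:51606832-51607131, minus strand: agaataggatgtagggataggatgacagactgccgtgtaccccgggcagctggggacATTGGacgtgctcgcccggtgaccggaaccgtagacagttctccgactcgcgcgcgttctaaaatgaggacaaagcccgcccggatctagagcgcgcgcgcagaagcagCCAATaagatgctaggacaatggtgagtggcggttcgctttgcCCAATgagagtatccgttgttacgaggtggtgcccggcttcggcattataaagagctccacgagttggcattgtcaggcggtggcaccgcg
The Srsf2 window held 1 match to the NRF1 motif and 1 to CCAAT. Srsf3 had 1 CCAAT match, in the reverse direction, and Hnrnpab had 3, of which 1 was reversed. None of the 3 windows held CACGTG or CCGGAAGT.

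RefSeq promoters were matched by symbol for 35 of the 39 members, giving 48 promoters because some genes have several starts. CCGGAAGT was in 10 of the 48 member promoters (20.8%), in 7.36% of the promoters of genes tested and in 3.89% of all 32851 promoters. The NRF1 motif was in 9 of 48 (18.8%), against 8.91% and 4.6% in the same 2 sets. CCAAT was in 24 of 48 (50%), against 37.5% and 37.4%, and CACGTG was in 5 of 48 (10.4%), against 9.73% and 7.15%. The member promoters were also split into 28 of genes called higher and 20 of the other members. These other members were lower, not called or, for Srsf12, not tested. CCGGAAGT was in 21.4% of the 28 promoters and 20% of the 20, and the NRF1 motif in 17.9% and 20%. CCAAT was in 50% of both sets, and CACGTG in 7.14% and 15%. These are letter matches, not measured binding, and no test was made on them.

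Among the SR genes below 2-fold, Srsf6 (SRp55), Srsf10, Srsf1 and Srsf11 rose by 0.78 to 0.95 on the log2 scale. Srsf6 read 1161, 1004 and 1062 untreated and 2082, 1926 and 2215 with anti-IgM, a log2 change of 0.95 ± 0.10 (adjusted p = 2.55e-05 in limma). The intensity of Srsf10, whose protein represses splicing in its dephosphorylated form, was 774, 640 and 618 untreated and 1146, 1313 and 1176 with anti-IgM, a change of 0.84 ± 0.12. Neither gene's groups overlapped. Srsf1 encodes SF2/ASF, the founding SR protein, which acts in constitutive and alternative splicing. It read 8376, 6641 and 5656 untreated and 13508, 10794 and 11835 with anti-IgM, a change of 0.82 ± 0.14, and Srsf11, for the SR-related protein p54, changed by 0.78 ± 0.12. Srsf4 (SRp75) rose less, by 0.37 ± 0.10, from 1557, 1302 and 1379 to 1842, 1768 and 1835 (adjusted p = 0.0119 in limma).

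The other two tested SR genes did not pass. Srsf9 (SRp30c) read 5429, 4457 and 4537 untreated and 4728, 4833 and 4529 with anti-IgM, a log2 difference of −0.03 ± 0.10. These groups overlapped, and the difference was far inside the replicate spread. Srsf5 (SRp40) read 3132, 6682 and 6241 untreated and 6123, 10925 and 8336 with anti-IgM. Replicate 1 was the lowest sample of both groups, and the anti-IgM value of replicate 1 lay below both other untreated values. The log2 difference of Srsf5 was 0.70 ± 0.28 (adjusted p = 0.0629 in limma), and within the pairs it was 0.97, 0.71 and 0.42. With the replicate number as a block the same difference passed (adjusted p = 1.97e-06 in limma), and without both replicate 1 arrays it was 0.56 (adjusted p = 0.000174).

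**Figure D2:**
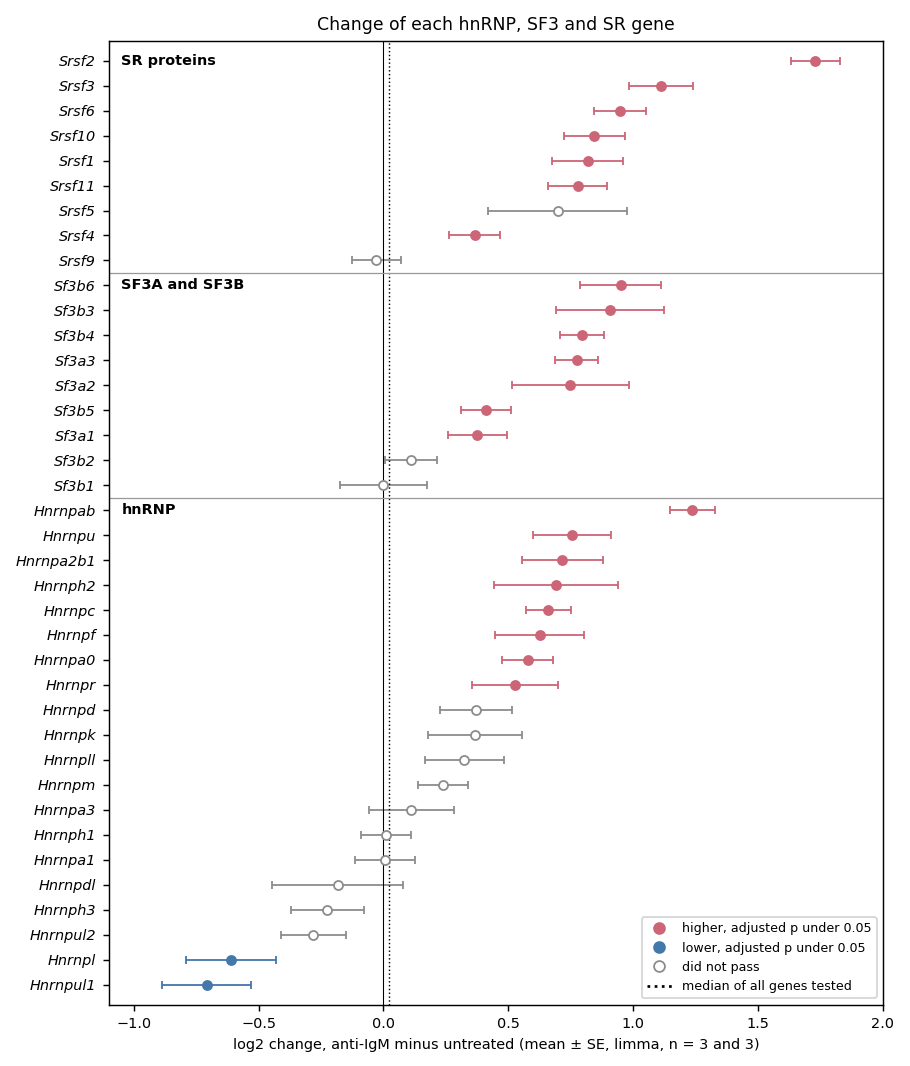
Log2 change of each tested gene, anti-IgM minus untreated (points, with bars of 1 SE from limma, n = 3 and 3), grouped by family and coloured by call at an adjusted p of 0.05. The SR genes run from −0.03 to 1.73, the SF3 genes from 0.00 to 0.95 and the hnRNP genes from −0.71 to 1.24, and both genes called lower are at the foot of the hnRNP group.

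All 3 subunits of SF3A were higher. Sf3a3 read 3103, 2923 and 3171 untreated and 5459, 5067 and 5191 with anti-IgM, a log2 change of 0.77 ± 0.09 (adjusted p = 2.73e-05 in limma). Sf3a2 read 127, 98.2 and 98.6 untreated and 255, 174 and 131 with anti-IgM, a change of 0.75 ± 0.23 (adjusted p = 0.0226). Its lowest anti-IgM value was just above its highest untreated one, and the within-pair changes were spread from 0.41 to 1.01. Sf3a1 read 1674, 1690 and 1701 untreated and 2623, 1941 and 2066 with anti-IgM, a change of 0.38 ± 0.12 (adjusted p = 0.0243). The calls of Sf3a1 and Sf3a2 were lost when some single arrays were left out. Fewer arrays also lower precision, so a lost call need not mean a smaller change. Sf3a1 did not pass without untreated replicate 2 or 3 or without anti-IgM replicate 1 (adjusted p of 0.06, 0.0642 and 0.0709 in limma), where the change was 0.38, 0.38 and 0.25. Without both replicate 1 arrays it was 0.24 (adjusted p = 0.055), and averaged over its tested probes 0.30 (adjusted p = 0.0783). Sf3a2 did not pass without untreated replicate 2 or 3 or anti-IgM replicate 1 or 2 (adjusted p of 0.0807, 0.0822, 0.0616 and 0.0557), with changes of 0.68, 0.69, 0.50 and 0.77.

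In SF3B, 4 of 6 genes were higher and the largest subunit was not. Sf3b6 encodes the small protein p14, which contacts the branch point adenosine. Its standing probe rose from 142, 134 and 116 to 253, 286 and 220, a log2 change of 0.95 ± 0.16 (adjusted p = 0.00063 in limma). Another Sf3b6 probe, which did not rise, was brighter in the untreated samples (mean log2 7.08 against 7.03). The standing probe was thus the brightest over the 6 arrays only through its anti-IgM values. Sf3b3 read 2843, 1698 and 1755 untreated and 5078, 3479 and 3162 with anti-IgM, a change of 0.91 ± 0.22, and replicate 1 was its highest sample in both groups. Sf3b4, which binds pre-mRNA upstream of the branch point, read 1482, 1521 and 1537 untreated and 2714, 2680 and 2488 with anti-IgM, a change of 0.80 ± 0.09. Sf3b5 rose by 0.41 ± 0.10. Neither group overlapped the other in any of these 4 genes.

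Sf3b1 encodes the scaffold of SF3B, the subunit recurrently mutated in human myelodysplasia and chronic lymphocytic leukaemia. Its only tested probe was dim, at 95.7, 114 and 85.9 untreated and 94.3, 120 and 83.0 with anti-IgM, and the log2 difference was 0.00 ± 0.17. Sf3b2 read 5206, 4629 and 4839 untreated and 6001, 4852 and 5041 with anti-IgM, a difference of 0.11 ± 0.10, with overlapping groups. Phf5a, a small SF3B subunit whose symbol falls outside the naming rule, rose by 0.96 ± 0.09 (adjusted p = 1.10e-05 in limma).

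Besides Hnrnpab, 7 hnRNP genes were higher. Hnrnpu, for the scaffold attachment factor A, read 94.0, 81.7 and 68.2 untreated and 129, 136 and 143 with anti-IgM, a log2 change of 0.76 ± 0.15 (adjusted p = 0.00206 in limma). Its only probe was dim, above the array median on 2 of the 3 untreated arrays. Hnrnpa2b1, which binds splicing silencers, read 4510, 5641 and 6534 untreated and 7248, 10649 and 9553 with anti-IgM, a change of 0.72 ± 0.16 (adjusted p = 0.00383). Hnrnpc, which coats uridine tracts of nascent transcripts, read 15248, 14221 and 13233 untreated and 23826, 21661 and 21958 with anti-IgM, a change of 0.66 ± 0.09. All anti-IgM values of these 3 genes were above all untreated ones. Hnrnpa0, an AU-rich element binding protein, rose by 0.58 ± 0.10, also without overlap.

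The calls of Hnrnpf, Hnrnph2 and Hnrnpr were also lost when some single arrays were left out, in some runs without a smaller change. Hnrnpf binds G tracts. It read 1531, 2295 and 1898 untreated and 2260, 3412 and 3171 with anti-IgM, and the groups overlapped because replicate 1 was lowest in both. Its log2 change of 0.62 ± 0.18 (adjusted p = 0.0138 in limma) became 0.51 and 0.56 without anti-IgM replicate 2 or 3 (adjusted p = 0.0702 and 0.0522). Hnrnph2, its paralog on the X chromosome, read 76.2, 116 and 122 untreated and 117, 195 and 201 with anti-IgM, again lowest in replicate 1 of each group. The change of 0.69 ± 0.25 (adjusted p = 0.0415) did not pass without untreated replicate 1 or 2 or without anti-IgM replicate 2 or 3, where it was 0.48, 0.78, 0.58 and 0.55 (adjusted p of 0.126, 0.0589, 0.146 and 0.133). Hnrnpr read 132, 103 and 106 untreated and 192, 158 and 142 with anti-IgM. Its change of 0.53 ± 0.17 (adjusted p = 0.0283) did not pass without untreated replicate 2 or 3 or without anti-IgM replicate 1 or 2, where it was 0.46, 0.48, 0.41 and 0.55 (adjusted p of 0.104, 0.0909, 0.0916 and 0.0604), nor averaged over its tested probes (0.39, adjusted p = 0.0762).

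Hnrnpl and Hnrnpul1 were lower. Hnrnpl encodes a protein that binds CA repeats and represses variable exons of the leukocyte phosphatase gene Ptprc (CD45). Its intensity was 7597, 6160 and 5635 untreated and 5716, 3709 and 3487 with anti-IgM. Anti-IgM replicate 1 lay inside the untreated range, so the groups overlapped, but each anti-IgM sample was below the untreated sample of the same number, by −0.41, −0.73 and −0.69 on the log2 scale. The log2 change was −0.61 ± 0.18 (adjusted p = 0.0167 in limma), and it did not pass without anti-IgM replicate 2 (−0.52, adjusted p = 0.0766) or replicate 3 (−0.48, adjusted p = 0.0683). Hnrnpul1, a member of the hnRNP U-like group, read 233, 287 and 241 untreated and 168, 124 and 177 with anti-IgM. These groups did not overlap, and the change was −0.71 ± 0.18 (adjusted p = 0.00729). Averaged over all its tested probes, the change of Hnrnpul1 was −0.30 (adjusted p = 0.0944).

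The remaining 10 hnRNP genes did not pass, and 4 of them passed once the replicate number was a block. Hnrnpd (AUF1), which binds AU-rich elements, differed by 0.37 ± 0.14 with no overlap, at 122, 102 and 118 untreated and 149, 144 and 148 with anti-IgM (adjusted p = 0.0561 in limma, 0.0397 with the replicate block). Hnrnpk, which binds C-rich sequence through KH domains, read 2393, 3329 and 4264 untreated and 3544, 4606 and 4449 with anti-IgM. Its difference of 0.37 ± 0.19 passed with the block (adjusted p = 0.142 without it and 0.00276 with it). Hnrnpm differed by 0.24 ± 0.10 (adjusted p = 0.0764 without the block and 0.0368 with it), and Hnrnpul2 by −0.28 ± 0.13 (0.103 and 0.0446). Without both replicate 1 arrays Hnrnpk passed (0.26, adjusted p = 0.0487), while Hnrnpd (0.41, 0.0684), Hnrnpm (0.18, 0.167) and Hnrnpul2 (−0.26, 0.141) did not. A dimmer probe of 3 of these genes passed in the fit over all probes. It was higher for Hnrnpk (0.67 ± 0.14, adjusted p = 0.00376) and Hnrnpm (0.53 ± 0.12, adjusted p = 0.00526) and lower for Hnrnpul2 (−0.47 ± 0.14, adjusted p = 0.0218). In the fit on pairs of probes, the difference from the standing probe did not pass for any of the 3 (adjusted p of 0.331, 0.261 and 0.564). Hnrnpll, known for repressing Ptprc exons in activated T cells, differed by 0.32 ± 0.16 (adjusted p = 0.127). Its anti-IgM values of 127.5, 104.5 and 104.6 were above the untreated 75.3, 94.0 and 100.4. Hnrnpa1, the best studied antagonist of SR proteins, differed by 0.01 ± 0.12, at 2813, 3455 and 3456 untreated and 2872, 3232 and 3666 with anti-IgM. Hnrnph1 differed by 0.01 ± 0.10, Hnrnpa3 by 0.11 ± 0.17 and Hnrnph3 by −0.22 ± 0.15. With 3 samples a group, a difference that did not pass is not shown to be absent.

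Several genes were read by more than 1 probe, and 82 of the 101 member probes were tested. Of these 82, 40 were higher and 3 were lower in a fit over all 23505 probes tested, where 21.2% were higher and 21% were lower. In 14 genes every tested probe was higher, 9 of them with 2 or more tested probes. No gene (0) had tested probes called in both directions. How often either occurs over all genes was not counted, so neither is shown to be particular to the members. A separate fit on the within-array difference between another probe and the standing probe, over 7196 such pairs of all genes, called 19.2% of pairs unequal. Among the members it called 12 of 44 pairs unequal, in 9 of the 25 genes with 2 or more tested probes. How many of all genes with 2 or more tested probes held an unequal pair was not counted. The sign of the difference was the same in 3 of 3 sample pairs for all 12 unequal pairs, which any pairing gives where the groups do not overlap. Leaving out single arrays gave between 4 and 13 unequal pairs, with 4 without untreated replicate 3 and 5 without anti-IgM replicate 2. Probe sequences were not analysed here, so which exon or mRNA end a probe reads, and whether it also binds related genes or processed copies, was not tested.

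Hnrnpdl had the widest split. This gene encodes a relative of Hnrnpd whose own mRNA is alternatively spliced. Its standing probe read 1863, 965 and 1274 untreated and 1702, 909.5 and 1011 with anti-IgM, a difference of −0.18 ± 0.26 (adjusted p = 0.626 in limma). Replicate 1 was the highest sample of both groups and the groups overlapped. A further probe for Hnrnpdl read 729, 750 and 814 untreated and 1257, 1497 and 1625 with anti-IgM, a rise of 0.93 ± 0.13. Another read 445, 363 and 403 untreated and 878.5, 1058 and 1241 with anti-IgM, a rise of 1.38 ± 0.15. Both had no overlap and passed in the probe fit. They differed from the standing probe by 1.11 ± 0.33 (adjusted p = 0.0415) and 1.57 ± 0.31 (adjusted p = 0.0063). All 3 probes are listed under the same RefSeq mRNA record. Without both replicate 1 arrays a different probe was the brightest, and the gene's value turned to 1.00 (adjusted p = 4.05e-08).

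In Srsf2 all 3 tested probes rose, by different amounts. The standing probe changed by 1.73, a second by 1.31 ± 0.09, from 2436, 2769 and 2559 to 6327, 6181 and 6734, and the dimmest by 2.32 ± 0.17, from 122, 123 and 136 to 514.5, 755 and 661. The dimmest probe differed from the standing probe by 0.59 ± 0.19 (adjusted p = 0.0485 in limma), and the other did not pass (adjusted p = 0.134). The Hnrnpab pair also rose together, with the dim probe at 144, 143 and 142 untreated and 468, 484 and 538 with anti-IgM, changing by 0.56 ± 0.14 more than the standing probe (adjusted p = 0.022). Hnrnph1, whose standing probe differed by 0.01, had a probe that rose by 0.61 ± 0.18, from 281, 349 and 366 to 399, 554 and 579. That difference of 0.60 ± 0.18 had an adjusted p of 0.041. In Hnrnpul1 another probe, at 87.5, 80.0 and 69.2 untreated and 85.6, 69.9 and 81.5 with anti-IgM, differed by 0.71 ± 0.17 from the standing probe that fell (adjusted p = 0.0171).

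Elsewhere the standing probe rose and another probe did not follow. Srsf6 had a second probe at 358, 295 and 436 untreated and 396, 363 and 350 with anti-IgM, which changed by −0.91 ± 0.18 relative to the standing probe (adjusted p = 0.00596 in limma). Relative to the standing probe, the other Sf3b6 probes changed by −1.03 ± 0.18 and −1.29 ± 0.27 (adjusted p = 0.00278 and 0.00716 in limma). Their own changes were −0.08 ± 0.14 and −0.34 ± 0.20, and neither passed in the probe fit. Averaged over its tested probes, Sf3b6 did not pass (log2 change 0.17, adjusted p = 0.24). In Srsf11 a second probe rose with the standing one, by 0.84 ± 0.14, while the other 2 changed less, by −0.87 ± 0.19 and −0.82 ± 0.22 (adjusted p = 0.0105 and 0.0274). Sf3a3 had a probe that changed less, by −0.65 ± 0.16 (adjusted p = 0.0166). In all 6 of these pairs the other probe is annotated to a cDNA clone record rather than to a curated RefSeq mRNA record.

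The members were also counted by record. Of 70 tested member probes under curated mRNA records, 38 were higher (54.3%) and 3 were lower, while of 11 under cDNA clone records 1 was higher (9.09%) and 0 were lower. Over all genes, 24.5% of 16818 tested probes under curated records and 11.9% of 1739 under clone records were higher. The median log2 intensity of the member probes was 10.32 for curated and 6.90 for clone records, and over all genes it was 7.65 and 6.55. The part of brightness in the unequal pairs was not tested.

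**Figure D3:**
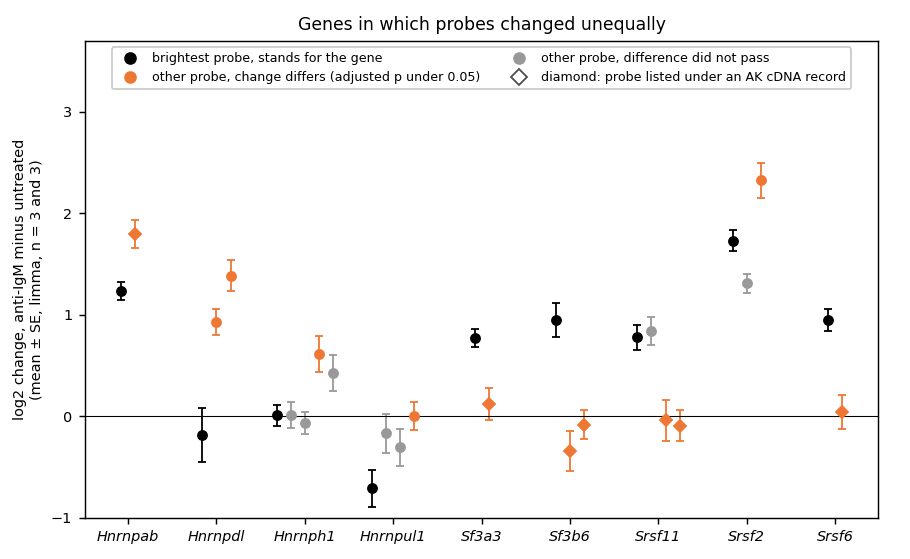
Log2 change of every tested probe (mean ± SE, limma, n = 3 and 3) in the 9 genes with at least 1 unequal pair, with the standing probe in black, other probes that differ from it in orange and those that did not pass in grey. Diamonds are probes listed under cDNA clone records, and 6 of the 7 orange diamonds lie near or below 0 beside a standing probe that rose.

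Genes that act with the members in splicing were counted from 5 lists. Of 115 listed genes 100 were tested, and 45 were higher (45%) and 12 lower (12%), with a median log2 change of 0.34. Over all genes tested, 23.2% were higher and 23.9% lower, with a median of 0.02. Core snRNP genes were mostly higher, 12 of 19 (63.2%), with 1 lower (5.26%) and a median of 0.69. Snrpd1 and Snrpd3, 2 of the Sm proteins that ring the spliceosomal RNAs, rose by 1.77 ± 0.09 and 1.39 ± 0.11. Snrnp25, of the minor U11 particle, fell by 0.98 ± 0.12 on the log2 scale. Of the genes for splice site recognition, assembly or catalysis 15 of 28 were higher (53.6%) and 1 was lower (3.57%), with a median of 0.39. U2af1, the small subunit that reads the AG of the 3′ splice site, rose by 1.56 ± 0.13 and Prpf3, of the U4/U6 particle, by 1.39 ± 0.10. Prpf6 was the one gene lower, at −0.39 ± 0.10.

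Among SR-related and exon junction complex genes 8 of 13 were higher (61.5%) and 0 were lower, with a median of 0.78. Tra2a, which activates exons beside SR proteins, rose by 1.20 ± 0.10, and the export adaptor Alyref by 1.06 ± 0.09. Of the SR protein kinases and import factors 3 of 10 were higher (30%) and 3 lower (30%), near the shares of all genes tested, with a median of −0.17. Srpk1, a cytoplasmic SR protein kinase, rose from 1342, 1103 and 1116 to 2408, 2547 and 2676, a change of 1.10 ± 0.11 (adjusted p = 1.12e-05 in limma). Its paralog Srpk2 fell from 729, 605 and 629 to 192, 195 and 184, a change of −1.78 ± 0.13 (adjusted p = 1.71e-06). Tnpo3, the importin of phosphorylated SR proteins, rose by 0.63 ± 0.13, and the nuclear kinase Clk1 changed by −1.23 ± 0.13. None of these 4 genes had overlapping groups.

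Of the other RNA-binding regulators 7 of 30 were higher (23.3%) and 7 lower (23.3%), shares at those of all genes tested, with a median of 0.16. Syncrip, also called hnRNP Q, rose by 1.46 ± 0.10, and the poly(C) binding protein gene Pcbp1 by 0.74 ± 0.10. Mbnl1, which controls developmental exon switches, fell from 14008, 13242 and 11806 to 4028, 3682 and 3765, a change of −1.76 ± 0.09. Celf2, another regulator of such exons in lymphocytes and muscle, changed by −1.42 ± 0.10. Both falls were larger than any fall among the members, the largest of which was −0.71.

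**Figure D4:**
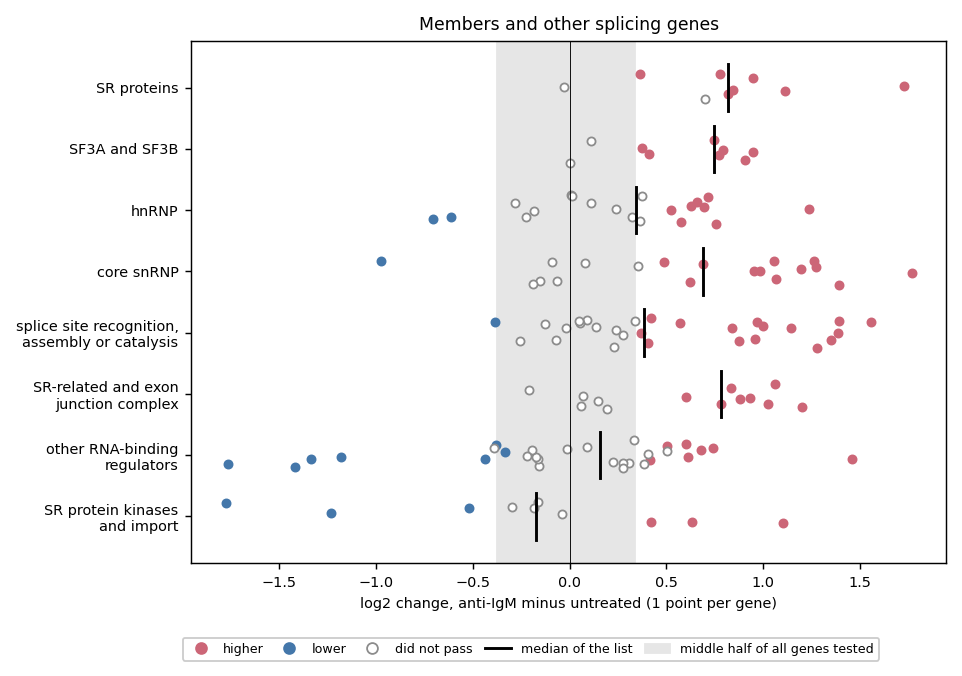
Log2 change of each tested gene, anti-IgM minus untreated (1 point a gene, red higher, blue lower, open did not pass), for the 3 member families and the 5 lists of other splicing genes, with a black bar at each median and a grey band from the 25th to the 75th percentile of all genes tested (−0.37 to 0.34). The SR, SF3, core snRNP and SR-related medians (0.82, 0.75, 0.69 and 0.78) lie well to the right of the band, those of the splice site and hnRNP groups (0.39 and 0.34) at or just past its right edge, and those of the kinases and other regulators (−0.17 and 0.16) inside it.

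Facts of the arrays bear on all of these values. Over all probes tested, arrays of one group correlated at 0.981 to 0.992 and arrays of different groups at 0.898 to 0.912. The first principal component held 81.2% of the variance. Replicate 1 of both groups stood apart. Xist, transcribed from the inactive X chromosome of females, read 52.6 on both replicate 1 arrays and 791 to 2031 on the other 4, and the Y-linked gene Eif2s3y read 1043 and 517 on the replicate 1 arrays and 48.6 to 56.4 on the others. Without both replicate 1 arrays, 24 of 38 members were higher and 2 lower, where 26.1% of all genes were higher and 26.7% lower. B cell markers were above the array median on all arrays for 4 of 4 genes measured, and all 4 were lower with anti-IgM, with a summed intensity of 32195 to 35652 untreated and 5430 to 6404 with anti-IgM. A smaller number of cells of a type and less RNA per cell cannot be told apart in such samples.

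Markers of other cells were also present. The summed intensity was 2141 to 2468 untreated and 1555 to 1861 with anti-IgM for 7 T cell genes (1 lower), and 371 to 452 and 508 to 614 for 4 NK cell genes (1 higher, 1 lower). It was 1814 to 6727 and 1398 to 2698 for 5 macrophage and monocyte genes (2 lower), and 403 to 611 and 553 to 749 for 5 dendritic cell genes (1 higher, 1 lower). Neutrophil genes (3, of which 2 were lower) summed to 666 to 1410 and 542 to 714. The 2 erythroid genes summed to 1090 to 2187 and 808 to 2141, and 4 plasma cell genes (1 lower) to 4191 to 10551 and 7606 to 8578. Single genes carried some of these sums: Cd8b1 read 1119 to 1895 in the T cell list, and Xbp1 3630 to 10252 in the plasma cell list, where Sdc1 read 158, 426 and 371 untreated and 116, 144 and 112 with anti-IgM. In the dendritic cell list Zbtb46 read 75.1 to 77.7 untreated and 256.5 to 263.7 with anti-IgM, while Xcr1 was lower. In the NK cell list Nkg7 read 110 to 187.8 untreated and 272.5 to 366.2 with anti-IgM, while Klrd1 was lower. Cd79b, Lyz2 and Hba-a1 were the brightest genes of the B cell, macrophage and erythroid lists. None was listed at 0, and Cd8a, Ncr1 and Itgax were above the median on no array. The part of these cells in the results was not tested.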

How the data were processed

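RNA from 6 samples of mouse splenic B cells was read on Illumina bead arrays. Per the labels' protocols, it was extracted with Trizol and RNeasy columns, and an Ambion kit made biotin-labelled cRNA. The authors deposited normalized linear intensity values per probe, with array medians of 72.81 to 72.84 and a lowest value of 34.4. Folds of dim probes can be compressed by such a floor, which was not tested. How they were normalized was not given in the sources used here. Another table was not used, because its 6 columns of per-sample values carry names that match no label.

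Probes were named by the platform annotation: 34885 had 1 symbol and 18 several, and 34807 matched RefSeq by Entrez ID. Samples were grouped by title. Log2 intensities were fitted without further normalization in limma 3.58.1 (R 4.3.3; lmFit, eBayes with trend), on 1 probe a gene for 11855 genes, with Benjamini-Hochberg adjustment and a two-sided threshold of 0.05. Precision is limited by the number of arrays (median SE 0.146). The fits were tested on simulated data. Pairs of probes were fitted on their within-array difference, without trend. No 2 arrays were identical (0 pairs).

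The labels number the replicates 1 to 3 in both groups. Deviations from the group means correlated at 0.605, 0.274 and 0.318 for same-numbered samples, each over 0.1. Same-numbered samples were therefore described as pairs. The main fit used the group alone, without pairing, and a replicate block was an alternative. Untreated 2 with anti-IgM 3 gave 0.387, so pairs 2 and 3 are not told from their exchange.

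The members, the gene lists and the motifs were chosen with earlier results of these data known. Every member is named, and from each list the 2 largest rises and falls among called genes; Phf5a, an SF3B subunit, was added after its value was seen. Alternatives were quantile normalization, scaling to one mean, no filter and a filter on all 6 arrays, an offset of 50 before log2, the replicate block, eBayes without trend, a test against a log2 change of 0.5, the mean of a gene's probes and leaving out arrays. Figures were drawn with matplotlib 3.10.9.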

Additional observations from a re-analysis of the deposited data

How the results depend on the processing

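The count of members higher with anti-IgM was 22 in the main fit. It was 22 to 23 under quantile normalization, scaling, the offset, both filters, eBayes without trend and the mean of a gene's probes. Over all genes, the share higher under these settings ran from 13.9% without the filter to 28.4% with the filter on all 6 arrays. Without both replicate 1 arrays the count was 24, where 26.1% of all genes were higher. With the replicate block the count was 26, with 3 lower, 67 splicing list genes called and 14 unequal pairs of probes. Over all genes, the block gave 26.3% higher and 27.6% lower. The block changed the calls of 5 members: Hnrnpd, Hnrnpk, Hnrnpm and Srsf5 became higher and Hnrnpul2 lower. Testing against a log2 change of 0.5 left 8 members higher and 0 lower (0 at an unadjusted p under 0.05 in limma's treat). Over all genes tested, 11.3% were then higher and 12.2% lower. The same test left 33 of 57 splicing list genes (26 of 45 higher and 7 of 12 lower). It left 0 of 12 unequal pairs (6 at an unadjusted p under 0.05). The mean of a gene's probes left 1 member lower, and under it Hnrnpr (0.39, adjusted p = 0.0762 in limma), Sf3a1 (0.30, 0.0783), Sf3b6 and Hnrnpul1 were not called. Leaving out single arrays gave 19 to 21 members higher, 1 to 2 lower and 4 to 13 unequal pairs. Over all genes, 20.7% to 24% were then higher and 21.8% to 24.9% lower. Hnrnpdl, −0.18 and not called, became 1.00 without both replicate 1 arrays, where its brightest probe changes, and 0.71 with the mean of its probes, both called. Of the 24 called members, 7 were called under all alternatives run (Hnrnpab, Sf3a3, Sf3b4, Srsf10, Srsf2, Srsf3 and Srsf6). Hnrnpa0, Hnrnpa2b1, Hnrnpc, Hnrnpu, Sf3b3, Sf3b5, Srsf1, Srsf11 and Srsf4 lost their call only in the test against a log2 change of 0.5. That test asks for more than a change, and how many of all called genes kept their call was not counted. Of the 14 members not called, 8 were called under no alternative. Without the filter 18 pairs were unequal. The share of unequal pairs over all genes is given for the main fit alone, so the counts under alternatives have no such share beside them. No unequal-pair count was made with the mean of probes. The pair fit has no trend, so eBayes without trend leaves its count of 12 unchanged by design. Dim probes near the array median limit what a small fold can show, those of Sf3b1, Hnrnpa3 and Hnrnpu among them.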
